A study of Saccharomyces cerevisiae with 4 samples.

Results

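Within the nucleus of a hybrid yeast, the allele of a laboratory strain (BY) was compared with the allele of a strain from a vineyard line (RM), gene by gene and within each library. The comparison used both hybrid libraries of the 4 libraries in the series, and all 4442 orthologous gene pairs whose reads the authors had separated by allele. Of these, 4269 had enough reads, in the hybrid or in the co-culture, to be tested and 173 did not, 13 of them on chromosome XIII. Crossing BY4741 with RM11-1alpha gave the hybrid, a diploid of a/alpha type. The co-culture, used beside it, mixed haploid BY4741 cells with haploid RM11-1a cells, both of mating type a, and also had 2 libraries. The groups therefore differed in ploidy, in mating type and in the RM parent as well as in whether the genomes shared a nucleus. Both kinds of culture grew at 30 °C and 250 rpm, starting from 0.1 OD600 and ending at 1.0 OD600. The labels call the cultures technical replicates and state that each library product was split for 2 PCR reactions, but not which culture or reaction a library is. All p-values therefore measure the spread between technical replicate samples, estimated mostly from all genes together.

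In a hybrid, both copies of a gene meet the same transcription factors, signals and growth conditions. A lasting difference between the alleles is therefore classed as a cis difference, one that travels with the DNA of the allele itself, such as its promoter or the stability of its transcript. A difference between strains that vanishes in the hybrid is classed as a trans difference, one carried by diffusible products such as regulators.

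Reads of both alleles summed to 2809121 in hybrid replicate 1 and 4183129 in hybrid replicate 2, against 2692044 and 3143817 in co-culture replicates 1 and 2. BY reads were 49.62% and 49.57% of the hybrid libraries. The files count reads on sites that differ between the strains, so levels were compared between alleles of a gene and never between genes. Gene totals of the hybrid libraries differed by more than sampling noise (chi-square of 2.79 per degree of freedom). The libraries were counted as 2 samples, although this difference does not show that they came from separate cultures. The BY share of each gene differed between them by little more than counting noise (chi-square of 1.1 per degree of freedom). Marker genes matched the labelled cell types. The 5 measured a-specific genes summed to 100 and 101 CPM (reads scaled to a common library size) in the hybrid, against 6750 and 6850 in the co-culture. The 6 measured haploid-specific genes summed to 193 and 213, against 2020 and 2040. No DNA library was used here, so a bias in assigning reads to alleles, which would act in both cultures, was not tested.

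The promoters of the 3 genes with the largest allele ratios on each side, among those with 10 or more reads in each hybrid column outside chromosome XIII, are shown here as the reference sequence upstream of these differences. Each runs from 250 bases before the start codon to 50 bases from its first base on, 5′ to 3′ on the coding strand, in the S288C reference of RefSeq (R64), the background from which BY derives. The RM sequence was not used here. Capitals mark the start codon ATG and the letters TATAAA, the core of the TATA box, on either strand (TTTATA on the other). The first 3 genes had more BY reads and the last 3 more RM reads. They lie at chrXII:46216-46515 (minus strand), chrVIII:104027-104326 (plus strand), chrIV:56297-56596 (minus strand), chrII:13830-14129 (minus strand), chrI:99648-99947 (minus strand) and chrIX:435934-436233 (minus strand).
YBT1: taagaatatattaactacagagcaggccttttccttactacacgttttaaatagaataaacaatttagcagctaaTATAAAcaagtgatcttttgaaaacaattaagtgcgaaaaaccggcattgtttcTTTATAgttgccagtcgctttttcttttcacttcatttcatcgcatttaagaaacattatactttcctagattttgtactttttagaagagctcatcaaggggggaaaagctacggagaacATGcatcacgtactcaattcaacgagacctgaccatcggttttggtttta
RPL14B: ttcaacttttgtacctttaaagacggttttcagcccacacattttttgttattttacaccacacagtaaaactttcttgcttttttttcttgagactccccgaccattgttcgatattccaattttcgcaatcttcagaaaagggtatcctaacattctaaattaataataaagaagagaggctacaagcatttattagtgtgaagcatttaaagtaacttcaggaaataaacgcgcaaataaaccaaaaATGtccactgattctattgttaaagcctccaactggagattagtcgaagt
WHI4: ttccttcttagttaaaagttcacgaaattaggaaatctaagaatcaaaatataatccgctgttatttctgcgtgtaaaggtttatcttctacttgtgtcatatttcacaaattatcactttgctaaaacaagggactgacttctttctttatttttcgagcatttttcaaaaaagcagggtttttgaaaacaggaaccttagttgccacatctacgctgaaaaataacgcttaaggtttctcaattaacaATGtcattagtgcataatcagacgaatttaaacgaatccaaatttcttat
SRO77: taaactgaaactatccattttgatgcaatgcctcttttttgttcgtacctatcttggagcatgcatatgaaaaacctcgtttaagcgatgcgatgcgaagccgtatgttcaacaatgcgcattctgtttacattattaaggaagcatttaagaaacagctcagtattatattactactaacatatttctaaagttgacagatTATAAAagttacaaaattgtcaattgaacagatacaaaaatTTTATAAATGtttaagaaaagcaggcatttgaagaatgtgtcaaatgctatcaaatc
DRS2: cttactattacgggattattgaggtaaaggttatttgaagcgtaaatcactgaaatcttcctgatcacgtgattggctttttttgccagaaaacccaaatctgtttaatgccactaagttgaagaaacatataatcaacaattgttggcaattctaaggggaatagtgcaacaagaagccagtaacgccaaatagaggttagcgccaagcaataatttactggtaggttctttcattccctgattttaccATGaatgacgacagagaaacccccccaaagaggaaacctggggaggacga
YIR042C: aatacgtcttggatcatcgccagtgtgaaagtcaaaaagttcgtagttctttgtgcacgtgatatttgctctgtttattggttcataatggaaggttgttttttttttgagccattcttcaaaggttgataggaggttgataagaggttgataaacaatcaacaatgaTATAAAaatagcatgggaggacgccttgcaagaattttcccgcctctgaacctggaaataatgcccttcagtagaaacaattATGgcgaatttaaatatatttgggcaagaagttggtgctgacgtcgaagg
YBT1 held 2 TATAAA matches, SRO77 3 and YIR042C 1, and the others held none. Of the SRO77 matches, 2 overlap each other and the nearer one shares its last base with the start codon. TATAAA on either strand occurred in 43.4% of the promoter windows of all genes tested outside chromosome XIII and the chromosome II segment described below, in 43.7% of those with an allele difference and in 43.9% of those that differed at least 2-fold.

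Chromosome XIII stood apart from every other chromosome. Its genes had more RM than BY reads from end to end in the hybrid, and not in the co-culture. The median log2 BY over RM of its 338 genes tested was −0.49 and −0.51 in hybrid replicates 1 and 2, against 0.07 in each co-culture library. In the fit, the median of −0.53 corresponded to 1.44 RM reads per BY read, each scaled by its column total. The fitted medians of the other chromosomes lay between −0.01 and 0.07. RM reads exceeded BY reads in both hybrid libraries for 293 of the 338 genes (86.7%), compared with 29.8% of genes elsewhere. In 6 blocks along the chromosome, the library medians ran from −0.43 to −0.55, with no block near 0. Chromosome XIII held 8.26% and 8.18% of BY reads and 11.74% and 11.61% of RM reads in the hybrid. In the co-culture it held 7.96% and 7.81% of BY reads and 8.51% and 8.37% of RM reads. DNA copy number was not measured, and a difference in copies cannot be told apart from a difference in expression.

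On chromosome XIII 246 of 338 genes tested passed an adjusted p of 0.05 (72.8%; edgeR quasi-likelihood test with Benjamini-Hochberg adjustment over all genes), 12 with the BY allele higher (3.55%) and 234 with the RM allele higher (69.2%). Centred on the median of the chromosome, 84 passed (24.9%), 51 with BY higher and 33 with RM higher, a setting chosen after seeing the data. DESeq2 called 117 without that centring. Among genes of the chromosome that met the read minimums for named genes, the largest ratios on each side follow. Their values and p-values are from the fit without centring. ERG29 (YMR134W), a gene of sterol synthesis, had 180 and 208 BY reads against 19 and 30 RM reads, a log2 ratio of 3.0 ± 0.22 (adjusted p = 9.17e-38). BY reads exceeded RM reads in both libraries. The other large BY-side ratios were PSO2 (YMR137C), a nuclease gene of crosslink repair, at 1.68 ± 0.20, RTP1 (YMR185W), which serves the nuclear import of RNA polymerase II, at 1.54 ± 0.20, and FAR8 (YMR029C), a gene of pheromone-induced arrest, at 1.05 ± 0.11. On the RM side, SMA2 (YML066C), a gene of spore membrane assembly, had 13 and 29 BY reads against 124 and 217 RM reads and stood at −2.99 ± 0.24. PLB2 (YMR006C), a phospholipase B gene, had 946 and 1409 BY reads against 3735 and 5227 RM reads and stood at −1.91 ± 0.04, close to its −1.83 ± 0.04 in the co-culture. SHH3 (YMR118C), a homologue of a succinate dehydrogenase subunit gene, stood at −1.14 ± 0.18 and YIM1 (YMR152W) at −1.12 ± 0.08. Ratios of most genes on the chromosome were smaller in size. GUA1 (YMR217W), the GMP synthase gene, had 3283 and 4792 BY reads against 5120 and 7278 RM reads and stood at −0.60 ± 0.03. HMG1 (YML075C), the HMG-CoA reductase gene, was nearer to equality in the hybrid, at −0.73 ± 0.03, than in the co-culture, at −1.74 ± 0.05.

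A stretch of the left arm of chromosome II also stood apart. It was found after the values had been seen, so its ratios are given as a description. From MIX23 to PEP1 (chrII:9961-191583, R64), 63 genes were tested, and their median log2 BY over RM was −1.03 and −0.88 in hybrid replicates 1 and 2, against 0.01 and 0.00 in the co-culture. RM exceeded BY in both hybrid libraries for 61 of the 63. In the fit, 58 passed (92.1% of genes tested), 1 with BY higher (1.59%) and 57 with RM higher (90.5%), with a median of 1.87 RM reads per BY read. Within it, 9 neighbouring genes from LSM2 to POP8 (chrII:170623-186474) were lower still, between −1.79 and −1.09 with a median of −1.64, or 3.12 RM reads per BY read. The 15 genes tested next along the arm, from FUS3 to ECM15, had a median of 0.08, and the 250 genes of the right arm one of 0.04. Elsewhere, outside this stretch and chromosome XIII, running medians of 15 neighbouring genes stayed between −0.20 and 0.28 in the hybrid.

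Genes of the stretch had varied roles and included ATP1 (YBL099W), the gene of the alpha subunit of ATP synthase, with 1641 and 2322 BY reads against 3012 and 4465 RM reads (−0.89 ± 0.03). ATP1 stood at −0.94 ± 0.04 in the co-culture, and its difference between cultures did not pass. URA7 (YBL039C), a CTP synthase gene, had 1063 and 1608 BY reads against 1854 and 2960 RM reads (−0.82 ± 0.04), with −0.28 ± 0.04 in the co-culture. POP8 (YBL018C), a subunit gene of RNase P and RNase MRP, had 35 and 61 BY reads against 118 and 208 RM reads (−1.74 ± 0.17), with 0.38 ± 0.15 in the co-culture. APN2 (YBL019W), a DNA repair endonuclease gene, likewise stood at −1.79 ± 0.17 in the hybrid, against 0.09 ± 0.15 in the co-culture. PRE7 (YBL041W), a proteasome core subunit gene, was the exception that passed with BY higher. It had 828 and 1116 BY reads against 391 and 566 RM reads (1.05 ± 0.06), and it stood at 1.8 ± 0.07 in the co-culture. The difference between hybrid and co-culture ratios passed for 50 of the 63 genes (27.0% over all genes tested), in 48 of them lower in the hybrid. The stretch held 1.16% of BY reads and 2.10% of RM reads in each hybrid library, against 1.32% of BY reads and 1.65% of RM reads in each co-culture library. As for chromosome XIII, copy number was not measured and the cause was not tested.

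**Figure D1:**
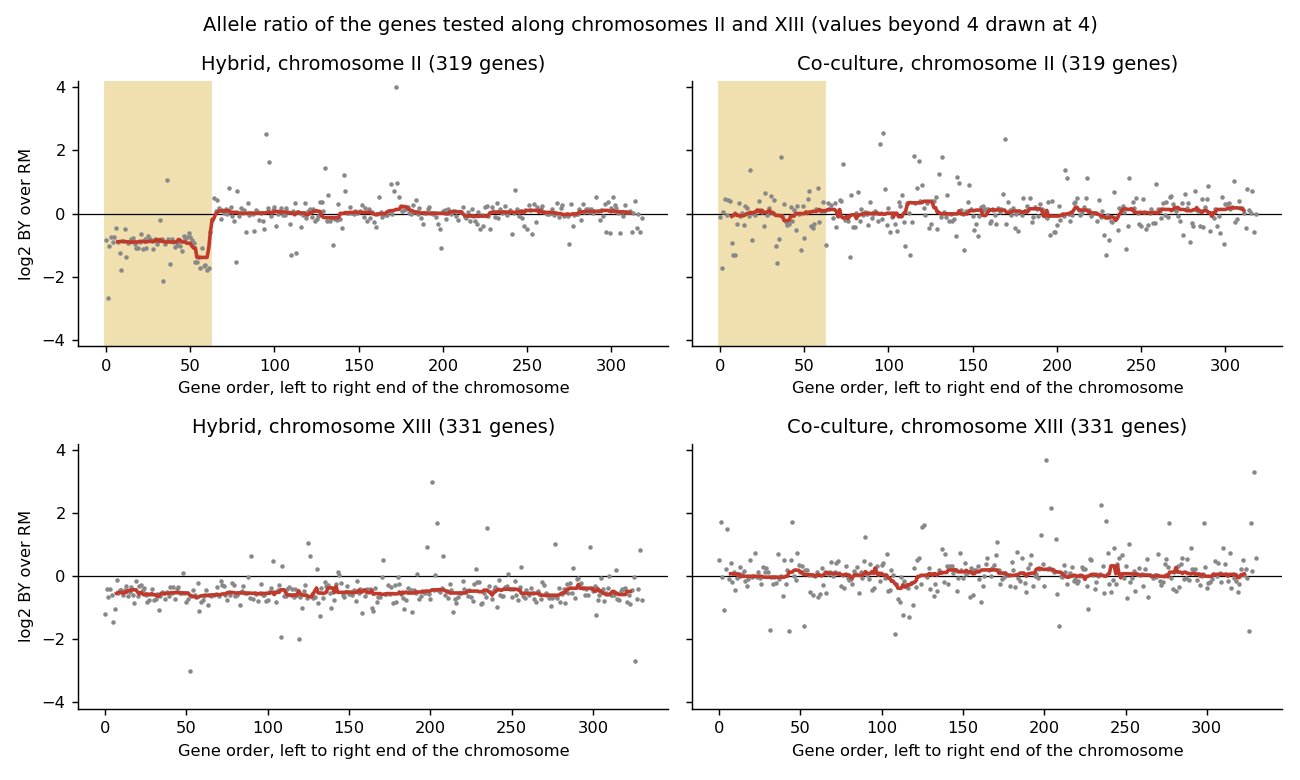
Fitted log2 BY over RM (y axis) of the genes tested with a reference position on chromosomes II and XIII, in gene order (x axis), for the hybrid (left) and the co-culture (right). Points are genes, the red line is the running median of 15 genes, and the shaded band is the stretch from MIX23 to PEP1. In the hybrid the line lies below 0 across the band and across all of chromosome XIII, while in the co-culture it runs on both sides of 0, between −0.22 and 0.39 on chromosome II and between −0.38 and 0.34 on chromosome XIII.

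Away from chromosome XIII and the chromosome II stretch, the rest of the genome held 3868 genes tested, and the alleles were near equality. Their median log2 BY over RM was 0.03 (quartiles −0.12 and 0.18). The allele difference passed for 926 genes (23.9%), 571 with BY higher (14.8%) and 355 with RM higher (9.18%). Outside chromosome XIII with the stretch included, 984 of 3931 passed (25.0%), 572 with BY higher and 412 with RM higher. The direction matched in both libraries for 923 of the 926. Most differences were small. The higher allele exceeded the other by a median of 1.37-fold, and 561 of the 926 (60.6%) by less than 1.5-fold. A ratio of 2-fold or more was seen for 201 genes, 5.2% of those tested, of which 126 had BY higher and 75 RM higher. The ratio was 4-fold or more for 61 genes, 50 with BY higher and 11 with RM higher. Calls were more frequent, and smaller, among genes with more reads. Among the third of genes with the fewest reads 12.6% passed, with a median of 2.06-fold, compared with 23.1% (1.41-fold) in the middle and 36.1% (1.21-fold) in the deepest.

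The split between alleles and the number of calls depended on settings. With column totals computed without chromosome XIII, the counts outside it were 435 with BY higher and 570 with RM higher. Without hybrid replicate 1 or 2 the calls outside chromosome XIII numbered 649 or 511, and DESeq2 called 357 outside chromosome XIII, of which 218 had BY higher and 139 RM higher. Across genes of the rest of the genome, log2 ratios of the hybrid libraries had a Pearson correlation of 0.83 over 3868 genes, and 0.92 over the 3044 that averaged 50 reads or more. Those are descriptions, since the genes are not independent.

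**Figure D2:**
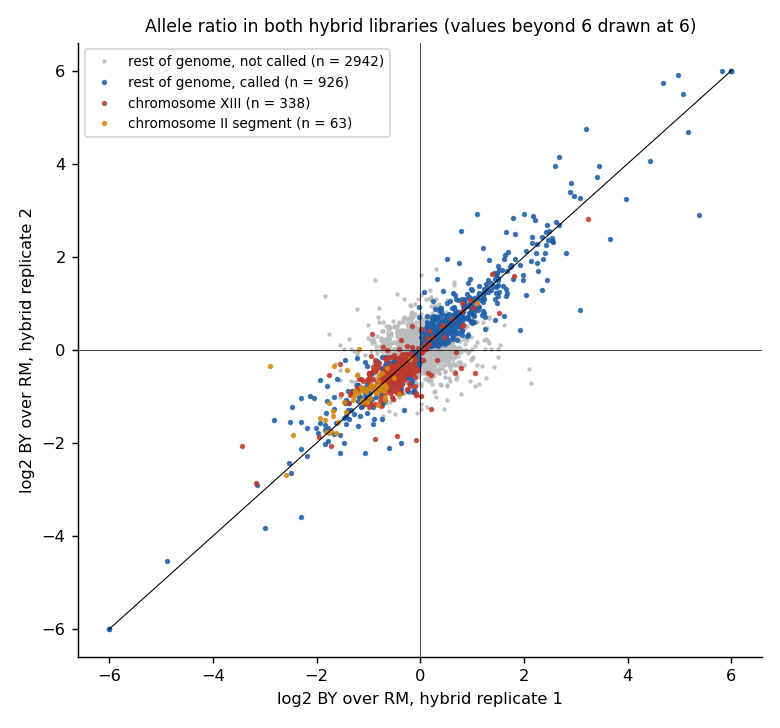
Log2 BY over RM of each gene tested in hybrid replicate 1 (x axis) and hybrid replicate 2 (y axis), with the diagonal drawn. Blue points are the 926 genes of the rest of the genome that passed, red points are chromosome XIII, and orange points the chromosome II stretch. Blue points lie along the diagonal on both sides, while red and orange points lie mostly below 0 in both libraries.

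Among genes with 10 or more reads in each hybrid column, the largest BY-side differences belonged to genes of varied function. YBT1 (YLL048C), a vacuolar transporter gene for bile acids, had 1413 and 2067 BY reads against 25 and 32 RM reads, a 61.8-fold difference (log2 5.95 ± 0.19, adjusted p = 5.71e-122), and 6.25 ± 0.25 in the co-culture. RPL14B (YHL001W), a large-subunit ribosomal protein gene, had 2348 and 3320 BY reads against 66 and 132 RM reads, a 29.1-fold difference (4.86 ± 0.10). It has a close paralog, so its read assignment is uncertain. WHI4 (YDL224C), an RNA-binding protein gene with a paralog in cell size control, had 628 and 1006 BY reads against 60 and 77 RM reads (3.60 ± 0.13). In both libraries the BY reads of these genes far exceeded the RM reads. RPN4 (YDL020C), the gene of the transcription factor of the proteasome genes, had 460 and 669 BY reads against 63 and 65 RM reads (3.16 ± 0.14). ARG4 (YHR018C), the argininosuccinate lyase gene, had 218 and 358 BY reads against 34 and 56 RM reads (2.70 ± 0.17). MRH1 (YDR033W), a plasma membrane protein gene, stood at 3.52 ± 0.14 and SYN8 (YAL014C), an endosomal SNARE gene, at 3.19 ± 0.19. KAP120 (YPL125W), a karyopherin gene, stood at 2.71 ± 0.27 and GAS2 (YLR343W), a glucanosyltransferase gene, at 2.58 ± 0.20. ENA5 (YDR038C), a sodium pump gene at 2.61 ± 0.21, and FCY22 (YER060W-A), a permease gene at 2.55 ± 0.24, have tandem copies nearby and are uncertain.

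Under the same minimum of 10 reads, the largest RM-side differences were smaller than those on the BY side. SRO77 (YBL106C), an exocytosis gene in the chromosome II stretch, had 16 and 24 BY reads against 101 and 161 RM reads (−2.68 ± 0.25), with −1.72 ± 0.21 in the co-culture. DRS2 (YAL026C), a phospholipid flippase gene, had 12 and 20 BY reads against 71 and 130 RM reads (−2.62 ± 0.28), and it overlaps a non-coding RNA gene. YIR042C, a gene without a known function, had 34 and 55 BY reads against 203 and 304 RM reads (−2.48 ± 0.17). In each of these the RM reads exceeded the BY reads in both libraries. RDL1 (YOR285W), a sulfurtransferase gene and the deepest of this set, had 227 and 328 BY reads against 735 and 1173 RM reads (−1.76 ± 0.07). SPO21 (YOL091W), a meiotic spindle pole gene, stood at −1.95 ± 0.19, YPL088W at −1.90 ± 0.13, OCT1 (YKL134C), a mitochondrial peptidase gene, at −1.83 ± 0.19 and YOR062C at −1.82 ± 0.21. YJR149W stood at −1.87 ± 0.22 in the hybrid, against −0.07 ± 0.22 in the co-culture. The other genes among the 12 lie in the chromosome II stretch. They are BRN1 (YBL097W), a condensin subunit gene, at −1.8 ± 0.25 (−1.32 ± 0.27 in the co-culture), and APN2 and POP8, described above.

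**Figure D3:**
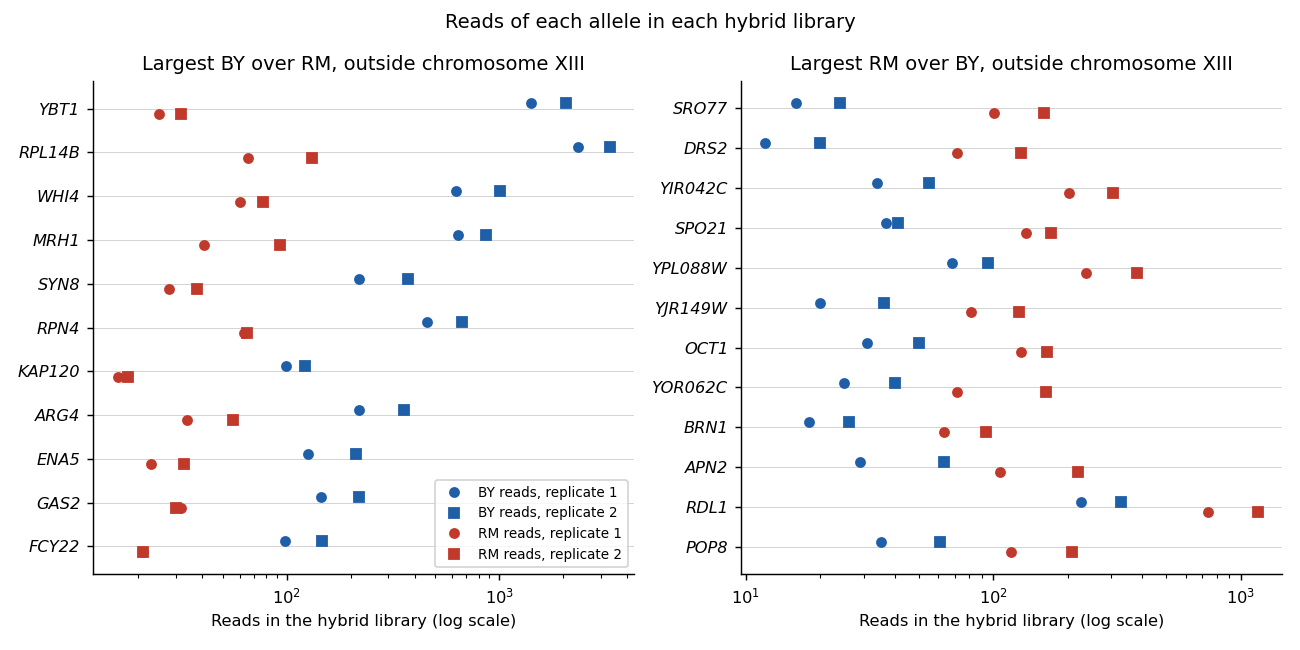
Reads of each allele (log x axis) in each hybrid library for 11 of the 12 genes with the largest BY over RM ratio (left) and the 12 with the largest RM over BY ratio (right) outside chromosome XIII, with 10 reads or more in each column. Blue symbols are BY reads and red symbols RM reads, circles replicate 1 and squares replicate 2, with some symbols hidden behind others. Blue and red do not overlap for any gene shown.

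Called genes with a scarce allele were kept apart from those rankings. Fewer than 10 reads of an allele in some hybrid column were counted for 65 of them, 30 with BY higher and 35 with RM higher, and 61 lay outside chromosome XIII. An allele had 0 reads over both hybrid libraries in 4 of the 65 and 1 to 3 reads in 7, while others had ratios near 2-fold. Some ratios here exceed the largest given above. LYS2 (YBR115C), a lysine synthesis gene, had 2224 BY reads and 0 RM reads over both hybrid libraries, at least 754-fold higher in BY (3 reads over the group). In the co-culture it had 1732 BY reads and 1620 RM reads, and the named RM parents differ. PTK1 (YKL198C), a kinase gene of polyamine transport, had 0 BY reads and 630 RM reads, at least 207-fold higher in RM. CTR3 (YLR411W), a copper transporter gene, had 20 BY reads and 545 RM reads, 26.5-fold higher in RM (31 and 574 in the co-culture). RSC3 (YDR303C), a gene of the RSC chromatin remodelling complex, had 549 BY reads and 1 RM read, a ratio of 558 (95% counting interval 99.7 to 22100). RM reads of RSC3 were as scarce in the co-culture, with 478 BY reads and 2 RM reads. MET17 (YLR303W), deleted in BY4741, had 1 BY read and 507 RM reads (0 and 533 in the co-culture), and overlaps YLR302C. Whether reads of a scarce allele went uncounted was not tested.

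Gene groups were then described outside chromosome XIII and the chromosome II stretch, by how many members tested passed in each direction. The lists were chosen with earlier results of these data known. Against 14.8% with BY higher and 9.18% with RM higher over all genes tested, and a median of 0.03, the cell wall list had more calls (66.7%, compared with 23.9%). Other lists also had high shares, such as 66.7% of 6 pyrimidine synthesis genes and 57.1% of 14 ergosterol genes. Calls were more frequent among genes with more reads, and depth was not matched between lists. Column totals without chromosome XIII moved the median hybrid ratio by −0.06 and changed the split between alleles. Directions of small ratios in the lists therefore depend on the scaling. Of 18 genes of cell wall mannoproteins and glucanases, 10 passed with BY higher and 2 with RM higher, with a median of 0.24. In the co-culture 7 of them had BY higher and 7 RM higher. CHS3 (YBR023C), the main chitin synthase gene, had 849 and 1255 BY reads against 154 and 217 RM reads (2.53 ± 0.08, adjusted p = 2.95e-80). EXG1 (YLR300W), an exoglucanase gene, had 1599 and 2242 BY reads against 589 and 900 RM reads (1.39 ± 0.05). CIS3 (YJL158C), a mannoprotein gene, had 2988 and 4428 BY reads against 1553 and 2329 RM reads (0.96 ± 0.03). These 3 had more BY reads in both libraries. CWP1 (YKL096W), another mannoprotein gene, ran the other way with 711 and 1011 BY reads against 2006 and 2857 RM reads (−1.47 ± 0.04), less far than in the co-culture (−3.27 ± 0.05).

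Genes that free daughter cells from their mothers gave a different picture. Of 13 daughter cell separation genes, 1 passed with BY higher and 5 with RM higher (46.2%, compared with 23.9%), with a median of −0.15. In the co-culture, where 44.5% of genes tested passed, 10 of them passed, each with BY higher, and the median was 1.14. CTS1 (YLR286C), the endochitinase gene, had 2813 and 3895 BY reads against 3371 and 5043 RM reads (−0.30 ± 0.03), against 3.97 ± 0.05 in the co-culture. SUN4 (YNL066W), a glucanase family gene, stood at −0.31 ± 0.04 against 1.22 ± 0.04, and PRY3 (YJL078C), a cell wall gene, at −0.59 ± 0.05 against 0.73 ± 0.07. EGT2 (YNL327W), another of the list, was the one with BY higher, at 0.26 ± 0.03. AMN1 (YBR158W), which delays separation, did not pass in the hybrid (381 and 501 BY reads against 320 and 532 RM reads, 0.08 ± 0.07, adjusted p = 0.514) and stood at 1.14 ± 0.05 in the co-culture. Without hybrid replicate 1 its hybrid value was −0.06 and again did not pass. The difference between cultures passed for 10 of the 13, compared with 23.0% of genes tested outside chromosome XIII and the stretch.

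Respiration lists had hybrid medians near 0, as all genes tested did. Their shares of calls lay on both sides of the 23.9% over all genes tested. Of 25 oxidative phosphorylation genes, 5 passed with BY higher and 3 with RM higher (32.0%), with a median of 0.04. In the co-culture, where 44.5% of all genes tested passed in either direction, 24 had RM higher. COX8 (YLR395C), a cytochrome oxidase subunit gene, had 138 and 158 BY reads against 85 and 113 RM reads (0.60 ± 0.14), and ATP16 (YDL004W), an ATP synthase subunit gene, stood at 0.24 ± 0.07. Of 36 mitochondrial ribosomal protein genes 1 passed (2.78%), MRPL20 (YKR085C) with BY higher (0.28 ± 0.10). Their median was −0.01, while in the co-culture 19 had RM higher. Of 10 tricarboxylic acid cycle genes, 3 had BY higher and 2 RM higher. Among them IDH2 (YOR136W), an isocitrate dehydrogenase gene, had 1164 and 1697 BY reads against 599 and 902 RM reads (0.95 ± 0.05), and LSC1 (YOR142W), a succinyl-CoA ligase subunit gene, stood at −0.36 ± 0.06, against −0.06 ± 0.06 in the co-culture. The COX8 call was lost without hybrid replicate 1 (0.51, edgeR adjusted p = 0.0804), and the ATP16 call without hybrid replicate 1 (0.21) or 2 (0.27). MRPL20 lost its call without any 1 of the 4 libraries, at 0.13 and 0.48 without hybrid replicates 1 and 2 and 0.28 without either co-culture library. Heme and oxygen genes leaned to BY, since 4 of 9 passed (44.4%), each with BY higher, with a median of 0.45. OLE1 (YGL055W), the fatty acid desaturase gene, had 4013 and 5531 BY reads against 1517 and 1969 RM reads (1.47 ± 0.03), but −0.97 ± 0.04 in the co-culture. YHB1 (YGR234W), a flavohaemoglobin gene, likewise stood at 0.45 ± 0.03 in the hybrid, against −0.43 ± 0.03 in the co-culture. HAP1 (YLR256W), a heme-responsive activator gene, had 644 and 979 BY reads against 452 and 704 RM reads (0.51 ± 0.06), and HEM13 (YDR044W), a heme synthesis gene, stood at 0.55 ± 0.12 in the hybrid, against 1.12 ± 0.12 in the co-culture. The HEM13 call was lost without hybrid replicate 1 (0.29).

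Membrane and transport genes were split between the alleles. Shares of calls in brackets compare with 23.9% over all genes tested. Among 14 ergosterol genes, 5 had BY higher and 3 RM higher (57.1%). IDI1 (YPL117C), an isomerase gene of the pathway, had 802 and 1021 BY reads against 370 and 445 RM reads (1.18 ± 0.07), and ERG11 (YHR007C), the demethylase gene, had 1535 and 2124 BY reads against 2111 and 3138 RM reads (−0.49 ± 0.04). Of 19 drug efflux genes, 5 had BY higher and 2 RM higher (36.8%). PDR5 (YOR153W), a multidrug exporter gene, had 7311 and 11025 BY reads against 3785 and 5827 RM reads (0.96 ± 0.02), and its relative PDR15 (YDR406W) had 169 and 292 BY reads against 48 and 77 RM reads (1.90 ± 0.15). TPO1 (YLL028W), a polyamine exporter gene, stood at 0.88 ± 0.09 in the hybrid, against −1.09 ± 0.09 in the co-culture. Of 14 iron uptake genes, 1 had BY higher and 3 RM higher (28.6%), among them FTH1 (YBR207W), a vacuolar iron transporter gene, at −0.65 ± 0.07. Of 14 amino acid permease genes, 4 had BY higher and 3 RM higher, with TAT1 (YBR069C) at 0.59 ± 0.05 and AGP3 (YFL055W) at −0.95 ± 0.17, a call that DESeq2 did not make (−0.98). Of 12 aquaporin and glycerol genes, 2 passed (16.7%), both with BY higher. These were GPD1 (YDL022W), the glycerol 3-phosphate dehydrogenase gene, with 553 and 765 BY reads against 97 and 153 RM reads (2.42 ± 0.10), and AQY1 (YPR192W), an aquaporin gene, with 30 and 48 BY reads against 6 and 13 RM reads (2.05 ± 0.38).

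Metabolic and stress genes differed in both directions. Shares of calls in brackets compare with 23.9% over all genes tested, and several lists lay near or below it. SOD1 (YJR104C), the copper-zinc superoxide dismutase gene, had 5675 and 8024 BY reads against 1512 and 2296 RM reads (1.87 ± 0.03, adjusted p = 9.91e-123), and GLR1 (YPL091W), the glutathione reductase gene, had 568 and 909 BY reads against 1134 and 1769 RM reads (−0.95 ± 0.05). Of 16 oxidative stress genes, 2 had BY higher and 1 RM higher (18.8%). MET5 (YJR137C), a sulfite reductase subunit gene, stood at 2.22 ± 0.21, and SAM1 (YLR180W), an S-adenosylmethionine synthetase gene, at −0.47 ± 0.03. Their list of 21 sulfur genes had 3 with BY higher and 4 with RM higher (33.3%). HIS5 (YIL116W), a histidine synthesis gene, had 67 and 101 BY reads against 186 and 219 RM reads (−1.25 ± 0.14), against −0.05 ± 0.11 in the co-culture. BAT2 (YJR148W), a branched-chain transaminase gene, stood at −0.22 ± 0.08 in the hybrid, against 2.14 ± 0.09 in the co-culture. BAT2 lost its call without any 1 of the 4 libraries, at −0.16 and −0.32 without hybrid replicates 1 and 2 and −0.22 without either co-culture library. URA8 (YJR103W), the other CTP synthase gene, stood at 1.14 ± 0.08. Of 14 trehalose, glycogen and stress genes 4 passed (28.6%), each with BY higher. Of 14 heat shock genes, 3 had BY higher and 1 RM higher (28.6%). HSP104 (YLL026W), a disaggregase gene, stood at 0.23 ± 0.07 in the hybrid, against 1.30 ± 0.07 in the co-culture. HSP104 lost its call without hybrid replicate 1 (0.25) or 2 (0.19). Of 6 phosphate genes, 3 had BY higher, VTC3 (YPL019C), a polyphosphate synthesis gene, among them at 0.64 ± 0.04.

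Genes of protein and RNA synthesis also differed in both directions, mostly by small ratios. Shares of calls in brackets compare with 23.9% over all genes tested. Of 50 ribosome biogenesis genes, 11 had BY higher and 4 RM higher, with a median of 0.03. UTP22 (YGR090W), a processome gene, had 557 and 828 BY reads against 127 and 171 RM reads (2.24 ± 0.10), SSF1 (YHR066W), a large-subunit assembly gene, stood at 1.82 ± 0.10, and BRX1 (YOL077C), also of large-subunit assembly, had 312 and 535 BY reads against 981 and 1614 RM reads (−1.59 ± 0.06). Of 41 large-subunit ribosomal protein genes, 9 had BY higher and 8 RM higher (41.5%), and of 24 small-subunit genes 3 had BY higher and 3 RM higher (25.0%). Among these, RPL18B (YNL301C) at 1.42 ± 0.14 and RPS11B (YBR048W) at −1.25 ± 0.11 have near-identical paralogs and are uncertain. Of 22 proteasome genes (9.09% passed), RPN4 had BY higher and RPN8 (YOR261C), a lid subunit gene, RM higher (−0.53 ± 0.06). Of 21 RNA polymerase genes 5 passed (23.8%, near the share over all genes tested), each with BY higher, and so did 5 of 14 tRNA synthetase genes (35.7%). Of 14 DNA repair genes 2 passed (14.3%), MSH6 (YDR097C), a mismatch repair gene, at 1.35 ± 0.16, and REV1 (YOR346W), a translesion synthesis gene, at 1.09 ± 0.19. Of 17 cyclin and cell cycle genes 0 passed by edgeR or by DESeq2, and 2 had an unadjusted p under 0.05 by edgeR and 0 by DESeq2, with a median of 0.07.

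**Figure D4:**
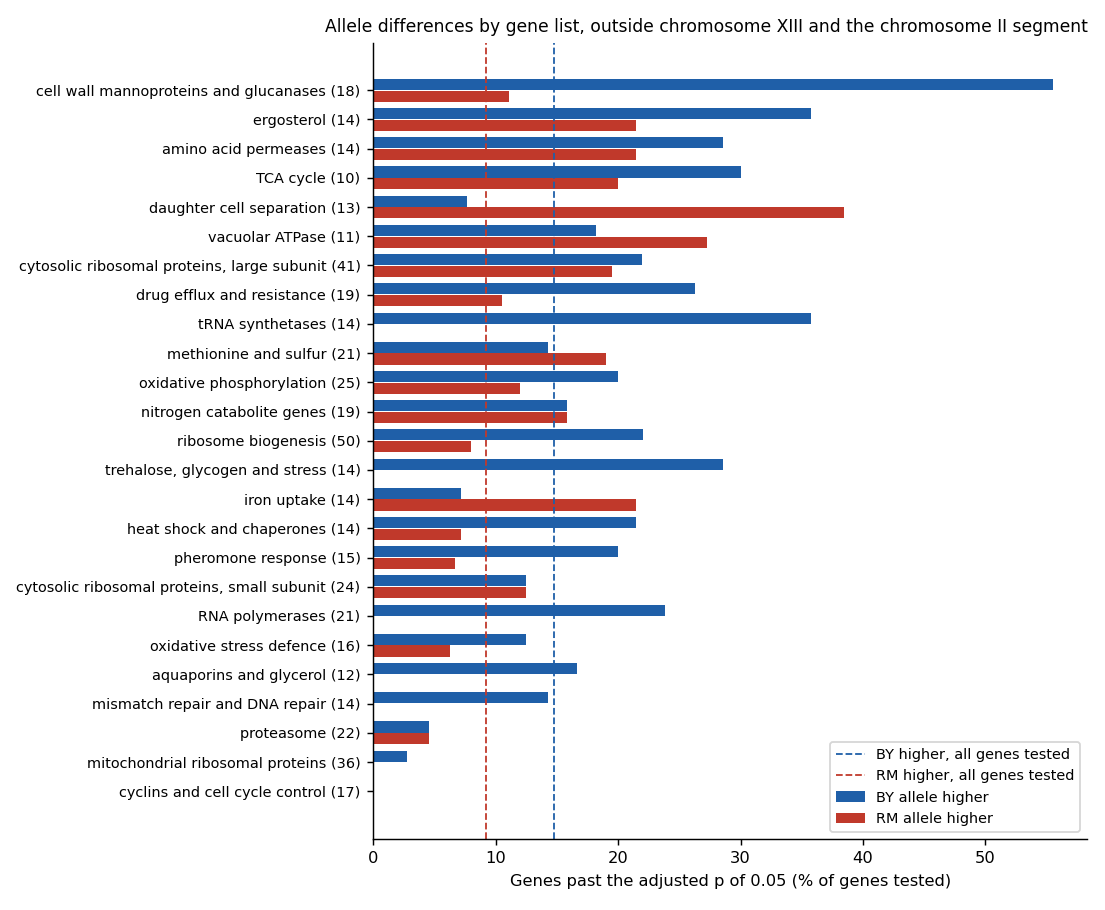
Share of genes tested (x axis, %) that passed with the BY allele higher (blue) or the RM allele higher (red), for gene lists with at least 10 genes tested outside chromosome XIII and the chromosome II stretch. Numbers in brackets are genes tested, and dashed lines are the shares over all genes tested, 14.8% for BY and 9.18% for RM. The cell wall list has the longest BY bar and the daughter cell separation list the longest RM bar.

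The co-culture ratio gives each of these allele differences its strain counterpart. Of the 926 genes that passed in the hybrid, 753 (81.3%) had the same direction in the co-culture, against 62.8% of all 3868 genes tested and 57.0% of those that did not pass. There 671 passed, 585 in the same direction and 86 in the opposite one, where 44.5% of all genes tested in the rest of the genome passed in the co-culture. Of the 201 genes with a 2-fold difference, 187 (93.0%) had the same direction. The difference between hybrid and co-culture ratios itself passed for 309 of the 926 (33.4%), with a background of 23.0% of the genes tested in the rest of the genome. The hybrid ratio was the larger in size for 156 of the 309 and the smaller for 153. Those genes were selected on the hybrid ratio, and over all 3868 genes, where 890 differences passed, the hybrid ratio was the larger for 173 and the smaller for 717. Over all chromosomes 1151 of 4269 genes (27.0%) had different ratios in the cultures. That count was 832 or 691 without hybrid replicate 1 or 2, 625 or 564 without co-culture replicate 1 or 2, and 298 by DESeq2.

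**Figure D5:**
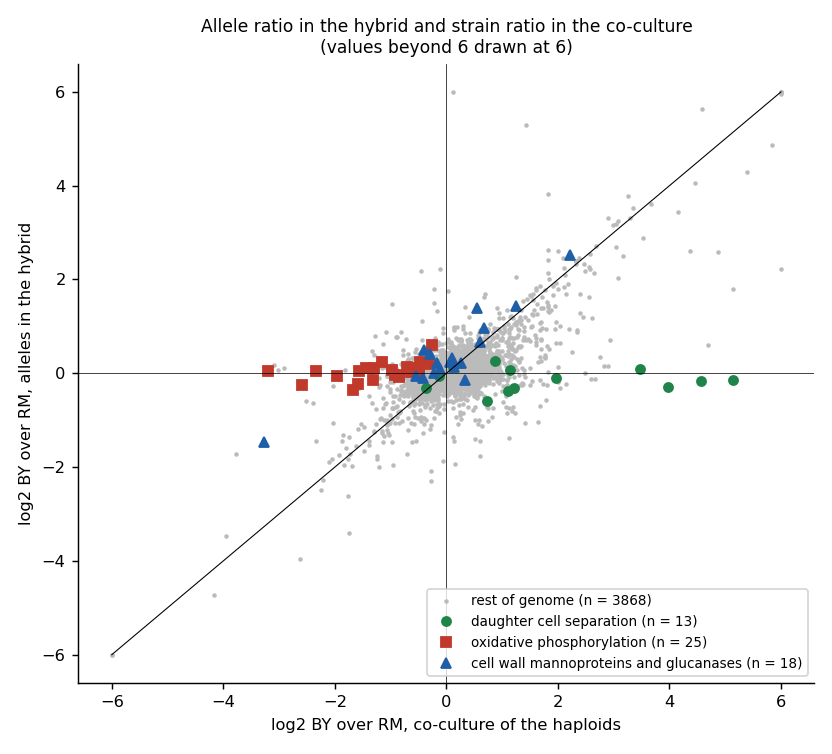
Fitted log2 BY over RM in the hybrid (y axis) and in the co-culture (x axis) for the 3868 genes tested outside chromosome XIII and the chromosome II stretch, with the diagonal drawn. Green circles are daughter cell separation genes, red squares oxidative phosphorylation genes and blue triangles cell wall genes. Green and red points lie near the horizontal zero line, many of them far from 0 on the x axis, while several blue points lie near the diagonal.

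Neighbouring genes were then compared in direction. Among neighbours on the chromosome that both passed, 28 of 52 divergent pairs (53.8%), 60 of 103 tandem pairs (58.3%) and 40 of 71 convergent pairs (56.3%) had the same direction. Since 61.7% of all called genes had BY higher, unrelated pairs would also often share a direction. No share for unrelated pairs was computed, so these counts are a description. There were 16 runs of neighbours that each differed 2-fold or more in 1 direction, holding 33 of the 201 genes. BY was higher in 13 runs and RM in 3, where 126 of the 201 genes had BY higher and 75 RM higher. The run of 3 genes was GCS1 (YDL226C), an ARF GTPase-activating protein gene (2.40 ± 0.09), SHS1 (YDL225W), a septin gene (2.33 ± 0.14), and WHI4, named after its values were seen. Of genes with BY higher 4 (0.709%) lay within 20 kb of a chromosome end, and of genes with RM higher 11 (3.13%), compared with 1.29% of genes tested. Without a test, that is a description of few genes.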

How the data were processed

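RNA sequencing libraries of 2 hybrid and 2 co-culture samples were used. The authors' deposited files hold counts, which are, per the file headers, reads on SNP sites for the BY and the RM copy of 4442 gene pairs. The counts are whole numbers and were used as deposited, with no scaling by the authors. CASAVA 1.8.2 and Bowtie are named in the submitters' processing notes. Not given in the sources used here are the genome build, the SNP set, the strand and how reads over several sites were handled. Systematic names were matched to the RefSeq R64 annotation for symbols and positions, 4325 matched and 117 did not, and 79 genes tested overlap another gene and are uncertain.

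Allele counts were tested two-sided with the quasi-likelihood functions glmQLFit and glmQLFTest of edgeR 4.0.16 (R 4.3.3) on the 8 allele columns, with library as a term that pairs the alleles of a library. Scaling was by the total of each column, without further factors. The hybrid columns give the hybrid ratio, and the co-culture columns add to the estimate of spread, which has 2 residual degrees of freedom (1 with hybrid columns alone). The fit shared this spread across genes with 183 prior degrees of freedom. The SE and p of a gene therefore rest mostly on the spread of all genes, and little on its own. Genes passed filterByExpr with a minimum count of 10, which kept 4269. The filter used the groups formed by culture and allele, so co-culture reads alone could keep a gene. In the third with the fewest reads, genes tested averaged 0.0 to 80.8 reads per hybrid column. Errors of log2 ratios are SE with n = 2 libraries per culture, and p-values were adjusted by Benjamini-Hochberg over all genes tested, at 0.05. The difference between the hybrid and co-culture ratios was tested in the same fit. Ratios per library used a pseudocount of 0.5 reads. With 0 reads of an allele, ratios are bounds at 3 reads over the group. With 1 to 3 reads they carry a 95% counting interval, and intervals and bounds cover counting error only. A simulation of 4278 genes in this comparison recovered 72% of 1.5-fold and 96% of 2-fold differences, and called 8 of 4078 unchanged genes. It gave every gene the same low spread beyond counting noise, so genes that vary more between libraries were not covered.

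Members, lists and tests were chosen with earlier results of these data known. Named genes were the 12 largest ratios in each direction outside chromosome XIII and the 4 largest on it. These had to pass, with 10 reads or more in each hybrid column, a mean of 50 or more and 1 direction in both libraries. The rule added from each list the members of smallest p that passed (at most 4), the 4 deepest genes with a scarce allele, and strain markers, of which 4 were not tested. Of the genes so named, the text gives those that illustrate each group. A gene among the 12 with BY higher is not reported here. Alternatives were TMM and RLE scaling, a total shared by both alleles, totals without chromosome XIII, no filter, a minimum mean of 50 reads, a log2 minimum of 0.32, DESeq2 1.42.0, no replicate block, a replicate block, hybrid columns alone, exact binomial tests and each library left out. Centring of chromosome XIII and counts without the chromosome II stretch were chosen after seeing the data.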

Additional observations from a re-analysis of the deposited data

Results flagged for a closer look

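The hybrid ratio of the genes below differed from their co-culture ratio (edgeR quasi-likelihood test of the difference, Benjamini-Hochberg adjusted p under 0.05 over all genes, n = 2 libraries per culture). Values are differences of log2 BY over RM, hybrid minus co-culture, so a negative value means a lower BY over RM in the hybrid. In the daughter cell separation list the differences were −4.27 for CTS1, −1.53 for SUN4, −1.32 for PRY3, −1.06 for AMN1 and −0.61 for EGT2. In the chromosome II stretch they were −2.12 for POP8, −1.88 for APN2, −0.96 for SRO77, −0.76 for PRE7 and −0.54 for URA7. On chromosome XIII they were −1.40 for SMA2, −0.88 for YIM1, −0.50 for FAR8 and −0.29 for GUA1 on the negative side, and 1.01 for HMG1.

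Respiration, heme and lipid genes had differences in both directions, with 2.45 for OLE1, 0.87 for COX8, 0.88 for YHB1, 0.72 for ATP16, 0.26 for IDH2, 0.90 for ERG11 and 0.25 for IDI1, and −0.65 for HAP1, −0.58 for HEM13 and −0.30 for LSC1. Cell wall genes had 1.79 for CWP1, 0.85 for EXG1, 0.30 for CHS3 and 0.28 for CIS3. Transport and stress genes had 1.97 for TPO1, −1.21 for TAT1, −0.76 for PDR5, −1.07 for HSP104, −1.32 for VTC3 and −0.44 for GLR1, and glycerol and superoxide genes had 0.61 for GPD1 and 0.19 for SOD1. Amino acid genes had −2.37 for BAT2, −1.20 for HIS5 and 0.30 for SAM1. Genes with the largest ratios had −2.30 for GAS2, −0.96 for RPL14B, −1.79 for YJR149W and −0.52 for RDL1, and other genes had 1.08 for RPL18B and −0.37 for RPN8. For LYS2, which had 0 RM reads in the hybrid, the BY allele was there at least 754-fold higher, while both alleles had like numbers of reads in the co-culture.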

How the results depend on the processing

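Counts outside chromosome XIII were within 1.5 times of 984 under every alternative except DESeq2 (357) and the omission of a hybrid library, which gave 511 to 649, while the omission of a co-culture library gave 753 to 759. With one hybrid library left, that library was assumed to vary like the co-culture. On chromosome XIII the count of 246 was 117 with DESeq2, 84 when the chromosome was centred on its own median, and 164 to 229 with a library left out. The difference between cultures passed for 1151 genes, 298 with DESeq2 and 564 to 832 with a library left out. Its split was 437 higher and 714 lower in the hybrid, 602 and 547 with TMM factors, 632 and 540 with RLE factors, and 149 and 149 with DESeq2. No scaling moved the median gene by more than 0.09 on the log2 scale. Even so, a shift of −0.06 in the hybrid, from totals without chromosome XIII, reversed the split of calls outside it. That split went from 572 with BY higher and 412 with RM higher to 435 and 570. The chromosome XIII median was −0.50 as the mean of the hybrid libraries, −0.52 both when centred on the other chromosomes and with a total shared by both alleles, and −0.51 to −0.49 with a hybrid library left out.

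The library term pairs the alleles of a library. Without it (no replicate block) 713 genes passed outside chromosome XIII, 233 on it, and 821 for the difference. A replicate block that pairs hybrid and co-culture libraries by number gave 1166 for the difference. Same-numbered libraries deviated together with a correlation of 0.27 across genes in gene level and 0.04 in allele ratio, and the labels state no pairing. Of 88 genes in the text, 80 kept direction and call of the hybrid ratio under every alternative run. Differences between cultures were not followed gene by gene under the alternatives. AMN1, which did not pass, stood at −0.06 without hybrid replicate 1. Without that library ATP16, BAT2, COX8, HEM13, HSP104 and MRPL20 lost their calls, and all but COX8 and HEM13 did without hybrid replicate 2. BAT2 and MRPL20 also lost theirs without either co-culture library and with hybrid columns alone. All 6 and AGP3 lost the call with DESeq2, ATP16, BAT2 and MRPL20 without the replicate block, HSP104 and MRPL20 with totals computed without chromosome XIII, and MRPL20 with a total shared by both alleles. The cause was not tested. Depth limits the calls: those in the third of genes with the fewest reads had a median of 2.06-fold.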
